A study of Mus musculus with 16 samples.

Results

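The 5 genes described here encode enzymes that desaturate or lengthen fatty acids: the desaturases Scd1, Scd2 and Fads1 and the elongases Elovl5 and Elovl6. They were taken as every probe set whose only gene symbol in the platform annotation was one of these names, which gave 9 probe sets for 5 of the 8251 genes that could be named in this way. Of the 9 probe sets 8 passed the filter on low signal, and each of the 5 genes had at least 1 of them. The tissue was retroperitoneal fat, a white depot that lies against the back wall of the abdomen, and every mouse, controls included, had been gonadectomised. In each sex 1 array was made at each of 6 times (1 h, 3 h, 6 h, 12 h, 18 h and 24 h) after a subcutaneous injection of 0.1 mg of DHT (dihydrotestosterone, an androgen that is formed from testosterone and cannot be turned into estrogen), and 2 arrays came from mice given vehicle. This made 6 female DHT, 6 male DHT, 2 female vehicle and 2 male vehicle arrays. The labels used here give neither strain nor age. Beside vehicle they write 24 h prior to necropsy, without saying whether vehicle was injected then. Fat was gathered per group of mice, so an array may hold a pool, and whether the 2 vehicle arrays of either sex hold different animals is not said. The p-values below rest on differences among these arrays alone, and such differences may be technical.

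Fat cells build saturated fatty acids from acetyl-CoA, and these chains are then modified in the endoplasmic reticulum. Elovl6 lengthens palmitate towards stearate. Scd1 and Scd2, stearoyl-CoA desaturases, place the first double bond in such saturated chains and so make oleate and palmitoleate, which enter triglycerides and membranes. Fads1 adds a double bond to chains that are already polyunsaturated, and Elovl5 lengthens polyunsaturated chains, both on the route to arachidonate and related lipids. Transcription of several of these genes is known to respond to SREBP-1c, a main regulator of fat synthesis. In the annotation of the mouse assembly GRCm38.p6, Scd3, Scd2, Scd4 and Scd1 lie next to each other on chromosome 19, and so do Fads3, Fads2 and Fads1, so related copies of these enzymes are neighbours.

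Male vehicle replicate 2 stood apart from all other arrays and is called the muscle-rich array here. All 19 skeletal muscle markers were higher on it than the mean of the 7 other male arrays, with a median ratio of 10.0. Of the 14 adipocyte markers on the array 13 were lower there, with a median ratio of 0.171, and 11 of 12 macrophage markers were lower too (0.275). The female 12 h array held the highest signals of all 4 exocrine pancreas markers, which summed to 64459 there and to at most 5819 on the female vehicle arrays. The 16 arrays had median signals of 184.1 to 219.5. Signals are MAS5 values scaled to a common trimmed mean of 500, so a level is relative to its whole array. Signals of different probe sets are not compared, apart from the rank of Scd1, the sums of markers and the choice of the brightest probe set per gene. Fewer cells of a type and less RNA per cell cannot be told apart in such bulk samples.

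Each of the 5 genes was at its lowest on the muscle-rich array, on every probe set that passed the filter. The dim Scd1 probe set below the filter was not, with 85.6 against a mean of 65.0 on the other male arrays. Elovl6 had a signal of 88.7 there, against 2681 ± 587 (SD, n = 7) on the other male arrays, a ratio of 0.0331. Its other probe set had 57.9, against 1052 ± 211 (SD, n = 7). Scd2 followed with 1003, against 6643 ± 906 (SD, n = 7), a ratio of 0.151. Both genes, like the others given next, thus lay far outside the spread of the other male arrays. Scd1 had 6610.0, against 41427 ± 8576 (SD, n = 7), a ratio of 0.160. The elongase Elovl5 had 688, against 3925 ± 275 (SD, n = 7), a ratio of 0.175. Fads1 was the least reduced, with 549, against 1403 ± 213 (SD, n = 7), a ratio of 0.391. The adipocyte marker ratios ran between 0.0115 (Cidec, a lipid droplet protein) and 2.54 (Slc2a4, the insulin-responsive glucose carrier, which muscle also uses). All 5 ratios lay within this span, but it is wide and takes in 1. The macrophage marker ratios ran between 0.148 and 1.04, a span that held the ratios of all but Elovl6. Scd1 was the brightest of all 12488 probe sets on the 15 other arrays. The part of the muscle content in these low values was not tested. Since this array is 1 of only 4 vehicle arrays, every comparison with vehicle is given with all 16 arrays and again with the 15 others.

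**Figure D1:**
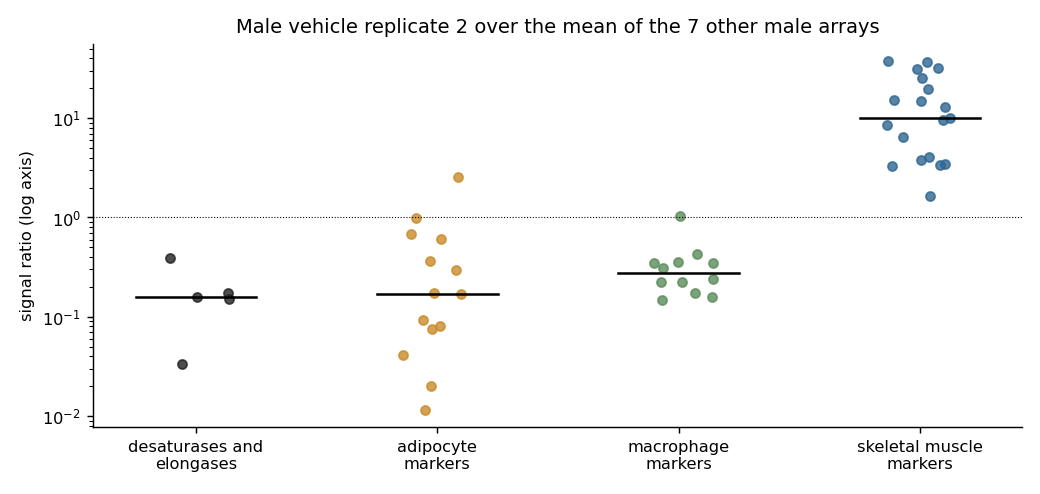
Signal on male vehicle replicate 2 divided by the mean of the 7 other male arrays, on a log axis, 1 point per gene, with a line at each median. The 5 desaturases and elongases sit between 0.0331 and 0.391, below the skeletal muscle markers (median 10.0). The adipocyte markers have a median of 0.171 and the macrophage markers one of 0.275.

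Scd1 is the main stearoyl-CoA desaturase of adult fat. In females its signal was 40527 and 23284 with vehicle and 29020, 29998, 32412, 35005, 50350.4 and 48147 along the 6 times. In males it was 42886 with vehicle (6610.0 on the muscle-rich array) and 28233, 52415, 38744, 33200.3, 46406 and 48109 at the same times. The female series was low at 1 to 6 h and high at 18 and 24 h, whereas the male series was already high at 3 h. The 2 female vehicle arrays differed from each other by a ratio of 1.74 for this probe set and 1.49 for the other bright probe set of Scd1. Another probe set of Scd1 had signals of only 17.0 to 130.1, lay below the filter, and was not tested.

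Scd2, the second stearoyl-CoA desaturase, was measured by 2 probe sets that did not follow each other. With the first, the signal in females was 7859 and 7787 with vehicle and 7696, 7085, 7769, 7375, 8071 and 10117 along the 6 times, so that the 24 h array was the highest. In males it was 5043 with vehicle (1003 on the muscle-rich array) and 7902, 6322, 6472, 7296, 7055 and 6410.3 at these times. On either probe set all 6 male DHT arrays were above male vehicle replicate 1, and the other male vehicle array was the muscle-rich one. This sets 6 arrays against 1, and how many of all genes split in this way was not counted. With the second probe set the female 24 h array was instead the lowest DHT array at 3246, against a range of 4194 to 6033 on the other 5 female DHT arrays. The r between the log2 values of these 2 probe sets was -0.30 over 15 arrays, as a description, whereas it was 0.97 for the 2 bright probe sets of Scd1 and 0.95 for those of Elovl6. Probe set names that end in _f, as the second one of Scd2 does, mark probes that may match related sequences, and Scd2 has close relatives beside it in the genome.

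Fads1 and Elovl5 are the enzymes of polyunsaturated chains. Fads1 ranged between 1223 and 1475 (median 1378) on the 6 female DHT arrays and between 1106 and 1664 (median 1447) on the 6 male ones, against 1327 and 1253 on the female vehicle arrays and 1233 on male vehicle replicate 1. Elovl5 ranged between 3882 and 5574 (median 4736) on female DHT arrays and between 3434 and 4244 (median 3951) on male ones, against 4415 and 4639.6 with vehicle in females and 4078 on male vehicle replicate 1. For both genes the DHT range of each sex took in the vehicle values of that sex, the muscle-rich array excepted.

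**Figure D2:**
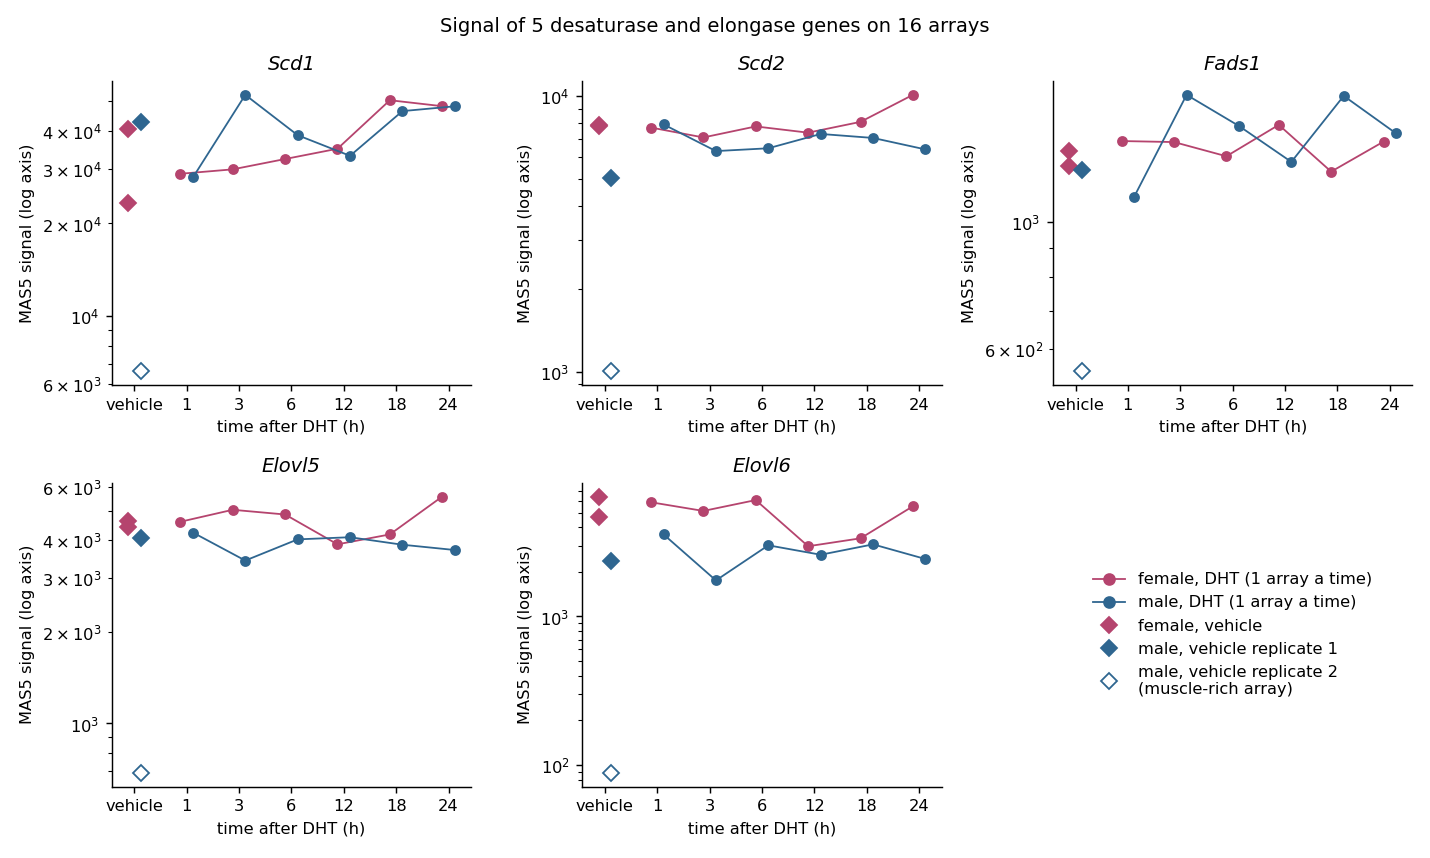
MAS5 signal (log axis, 1 panel per gene with its own scale) against time after DHT, with vehicle at the left; circles joined by lines are DHT arrays, 1 per sex and time, and diamonds are vehicle arrays. The open diamond, male vehicle replicate 2, is the lowest point in every panel, and Elovl6 lies higher in females than in males at each of the 6 times.

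DHT over all 6 times was compared with vehicle to ask whether the androgen changed these enzymes. With all 16 arrays the fitted log2 differences, on the log2(signal + 16) scale, were positive for all 5 genes and none passed. They were 1.09 ± 0.70 for Elovl6, 0.81 ± 0.38 for Scd2, 0.75 ± 0.41 for Scd1, 0.62 ± 0.37 for Elovl5 and 0.42 ± 0.21 for Fads1 (SE, 12 DHT against 4 vehicle arrays, limma adjusted p = 0.630 for each). The size of these values rested on the muscle-rich array. With the 15 other arrays the differences were -0.09 ± 0.20 for Elovl6, 0.18 ± 0.12 for Scd2, 0.13 ± 0.17 for Scd1, 0.0020 ± 0.11 for Elovl5 and 0.12 ± 0.12 for Fads1 (SE, limma adjusted p = 0.998 for each). Over all genes tested 0.0703% were called with 16 arrays and 0.0879% with 15, and no member reached an unadjusted p below 0.05 in either fit. The median of the 5 genes was 0.75 beside 0.04 for all genes with 16 arrays, and 0.12 beside 0.01 with 15.

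With 16 arrays the 30 differences (5 genes at 6 times) were all above 0, between 0.26 and 1.47, and 0 of 5 genes passed at any time (lowest unadjusted p = 0.100, lowest limma adjusted p = 0.703). With 15 arrays 20 of the 30 were above 0, between -0.43 and 0.46, and again 0 passed (lowest unadjusted p = 0.0722, lowest limma adjusted p = 0.706). The value of 0.46 ± 0.23 was that of Scd1 at 18 h, and Scd1 had 0.45 ± 0.23 at 24 h (SE). The share of all genes called was 0.0% at 1 h, 0.0176% at 3 h, 0.0528% at 6 h, 0.0528% at 12 h, 0.0% at 18 h and 0.0% at 24 h with 16 arrays. With 15 arrays it was 0.0% at 1 h, 0.0176% at 3 h, 0.0879% at 6 h, 0.0703% at 12 h, 0.0352% at 18 h and 0.0176% at 24 h. The F test over the 6 times called none of the 5 genes with 16 arrays (0.0528% of all genes) or with 15 (0.0879%), at limma adjusted p of 0.989 or more.

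Within females DHT minus vehicle ranged between -0.24 (Elovl6) and 0.25 (Scd1) and no member passed (limma adjusted p = 1.00; 0 members at an unadjusted p below 0.05; 0.0% of all genes with 16 arrays and 0.0528% with 15). Within males the values with 16 arrays ran between 0.77 (Fads1) and 2.43 (Elovl6). All 5 had an unadjusted p below 0.05 and none passed (lowest limma adjusted p = 0.221; 0.0176% of all genes). Without the muscle-rich array the male values were 0.45 ± 0.17 for Scd2 (unadjusted p = 0.0263, limma adjusted p = 1.00), 0.20 ± 0.21 for Fads1, 0.18 ± 0.33 for Elovl6, -0.07 ± 0.19 for Elovl5 and -0.09 ± 0.27 for Scd1 (SE), where 0.0% of all genes passed and male vehicle was a single array. Without male vehicle replicate 1, which leaves the muscle-rich array as the only male vehicle array, all 5 passed in males, with differences of 1.34 (Fads1) to 4.68 (Elovl6), in a fit that called 43.0% of all genes. The sex difference of the response, female minus male, ran between -2.67 (Elovl6) and -0.70 (Fads1) with 16 arrays and between -0.42 (Scd2) and 0.34 (Scd1) with 15. No member passed in either fit (lowest limma adjusted p = 0.594 and 1.00; 0.0% of all genes in both), and Scd2 and Elovl6 had an unadjusted p below 0.05 with 16 arrays only. All 5 passed this test, too, without male vehicle replicate 1, where 33.7% of all genes did.

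**Figure D3:**
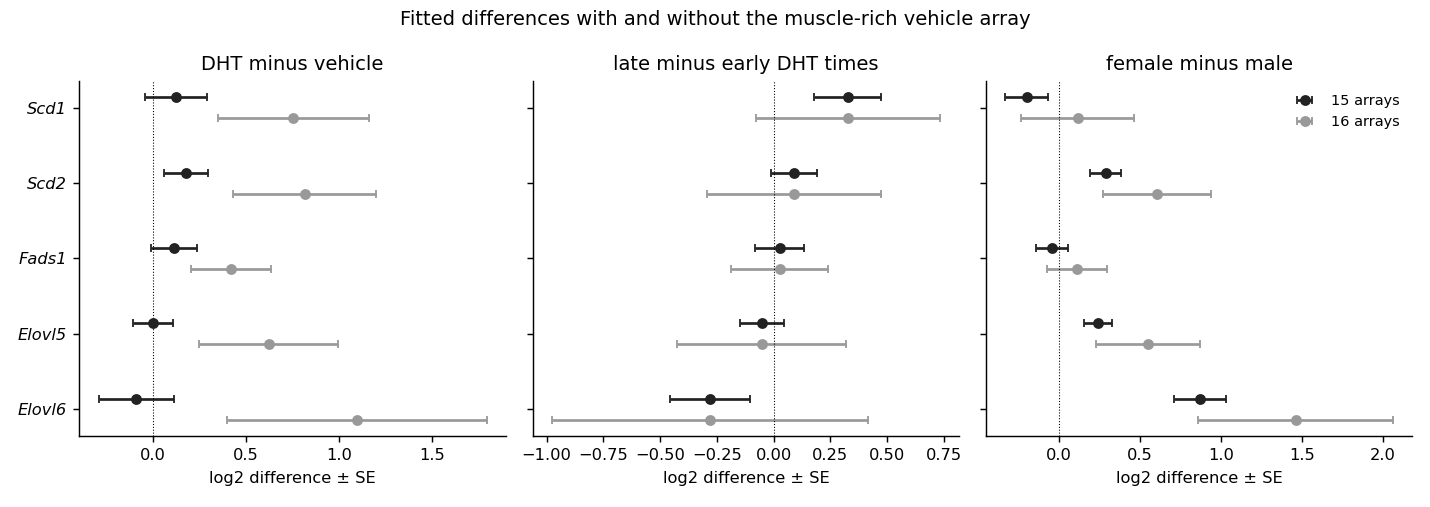
Fitted log2 differences of the 5 genes with their standard errors, from 15 arrays (black) and from all 16 (grey). For DHT minus vehicle the black points lie between -0.09 and 0.18 and the grey ones between 0.42 and 1.09, while for Elovl6 female minus male is above 0 in both (0.87 and 1.46).

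The late times (12, 18 and 24 h) were compared with the early ones (1, 3 and 6 h), a contrast between DHT arrays in which vehicle plays no direct part. No member passed with 16 arrays (limma adjusted p = 1.00 for each; 0.0% of all genes), with 15 (0.0352%) or with the 12 DHT arrays alone (0.0703%). Scd1 had the largest difference, 0.33 ± 0.15 with 15 arrays (SE, unadjusted p = 0.0463, limma adjusted p = 0.684). On the 2 female vehicle arrays Scd1 had 40527 and 23284. Its late signals in females, 35005 to 50350.4, were all above its early ones of 29020 to 32412, a split not counted over all genes. In males the late signals of 33200.3 to 48109 overlapped the early ones of 28233 to 52415. The level of the control probe sets with names ending in _st, a technical measure, moved with this: its log2 mean was 7.32 to 7.995 late and 6.13 to 6.29 early in females, and 7.12 to 7.28 late and 6.30 to 7.65 early in males. With that level as a covariate the late minus early difference of Scd1 was -0.06 with 15 arrays and -0.36 with 16. The other 4 genes had values between -0.28 ± 0.18 (Elovl6) and 0.09 ± 0.10 (Scd2) with 15 arrays (SE). With the control level as a covariate and 15 arrays, the values of Fads1, Elovl5 and Elovl6 changed sign.

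With 15 arrays the only member to pass was Elovl6, the elongase that makes stearate, which was higher in females than in males. That comparison called 16.6% of all genes, and 1 of 5 members is near that share. The promoter window of Elovl6 is printed beside that of Elovl5, the elongase that did not pass, to show both sequences with the motifs searched. They run 5′ to 3′ for 250 bases before and 50 after the annotated start and come from RefSeq in the build GRCm38.p6, at chr3:129532136-129532435 (plus strand) for Elovl6 and chr9:77917115-77917414 (plus strand) for Elovl5. Capitals mark motif matches on either strand.
Elovl6: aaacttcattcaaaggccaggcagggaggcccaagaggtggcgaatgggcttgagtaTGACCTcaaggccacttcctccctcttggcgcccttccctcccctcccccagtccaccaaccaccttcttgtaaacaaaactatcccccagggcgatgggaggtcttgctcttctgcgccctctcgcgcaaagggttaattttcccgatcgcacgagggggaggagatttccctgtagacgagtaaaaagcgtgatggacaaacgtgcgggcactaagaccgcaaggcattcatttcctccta
Elovl5: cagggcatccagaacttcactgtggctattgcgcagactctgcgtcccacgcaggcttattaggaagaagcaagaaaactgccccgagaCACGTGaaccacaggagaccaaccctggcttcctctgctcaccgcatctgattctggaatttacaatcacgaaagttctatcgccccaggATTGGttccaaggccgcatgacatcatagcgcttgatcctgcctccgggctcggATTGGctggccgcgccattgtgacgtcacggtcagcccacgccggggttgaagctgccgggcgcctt
The Elovl6 window held 1 nuclear receptor half-site (AGGTCA, here as its reverse complement TGACCT), which 16.3% of 32851 promoter windows of this length hold. The Elovl5 window held 2 NF-Y boxes (CCAAT, here as ATTGG; in 37.4% of windows) and 1 E-box (CACGTG; in 7.15%). The half-site of the androgen and glucocorticoid element (AGAACA; in 19.0%) and the sterol regulatory element core (TCACNCCAC; in 1.24%) were in neither window. These matches are letters in a window, not binding sites, and none of them overlaps another.

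In females the Elovl6 signal was 4698 and 6401 with vehicle and 5859.8, 5123, 6062, 2966, 3353 and 5506 along the 6 times. In males it was 2357 with vehicle (88.7 on the muscle-rich array) and 3562, 1748, 3009, 2600.3, 3054 and 2434 at these times. The female arrays averaged 4996 ± 1256 (SD, n = 8) and the male arrays without the muscle-rich one 2681 ± 587 (SD, n = 7). Of the 8 female arrays 6 were above all 7 of these male arrays, and the 12 and 18 h arrays lay within the male range. At matched times the female signal was higher in 6 of 6 pairs, with ratios of 1.65, 2.93, 2.01, 1.14, 1.10 and 2.26 from 1 to 24 h. On the second probe set the mean was 1893 (SD 532) over the 8 female arrays and 1052 (SD 211) over the 7 male arrays. With it 7 of 8 female arrays were above all 7 male ones and the female signal was higher in 5 of 6 matched pairs, the exception being 12 h with 870.3 in the female and 960.3 in the male. How many of all genes split by sex in these ways was not counted. From 1 to 24 h the log2 mean of the _st control probe sets was 6.29, 6.13, 6.26, 7.35, 7.995 and 7.32 in females. In males it was 6.30, 7.65, 7.10, 7.12, 7.25 and 7.28. The part of this control level in the matched ratios was not tested.

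The test of this difference depended on the muscle-rich array. With all 16 arrays Elovl6 was 1.46 ± 0.60 log2 units higher in females and did not pass (SE, unadjusted p = 0.0327, limma adjusted p = 0.201), and 0 of the 5 genes did, where 5.75% of all genes were called. With 15 arrays it was 0.87 ± 0.16 higher, a 1.83-fold difference, and passed (SE, limma adjusted p = 0.00285). Elovl6 was then 1 of 5 members called, beside 16.6% of all genes. With the _st control level as a covariate the difference from 15 arrays was smaller and still passed, in a fit that called 20.3% of all genes. The second probe set, in a fit of every probe set, gave 1.28 ± 0.53 with 16 arrays (limma adjusted p = 0.210) and 0.76 ± 0.17 with 15 (SE, limma adjusted p = 0.00929). Under DHT alone Elovl6 was 0.79 higher in females: 0.79 ± 0.59 with 16 arrays did not pass (limma adjusted p = 0.636; 2.67% of all genes called), and 0.79 ± 0.18 with 15 passed (SE, limma adjusted p = 0.0151; 11.9%). With the 12 DHT arrays alone, which hold no vehicle array, it passed too (0.79 ± 0.17, SE, limma adjusted p = 0.0147; 13.2%). From the 15 arrays each further array was left out in turn: the difference over all arrays passed in 15 of 15 fits (0.76 to 0.99; 11.8 to 17.2% of all genes called), and that under DHT in 11 of 14 (0.64 to 0.93; 7.32 to 13.2%). The 3 that missed were without the female 6 h, male 6 h and female 24 h arrays, at limma adjusted p of 0.0550, 0.0545 and 0.0504. These fits were not separate checks. With time in the model, leaving out the female or the male array of a DHT time gave the same difference (0.98 over all arrays for 12 h). Leaving out either female vehicle array could not move the difference under DHT, which stayed at 0.79.

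**Figure D4:**
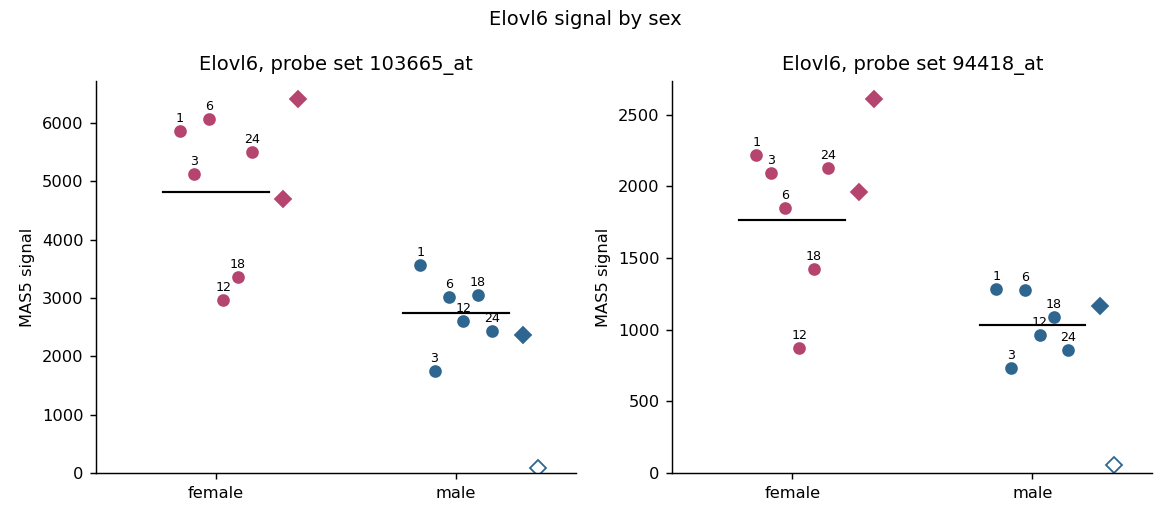
MAS5 signal of both tested Elovl6 probe sets, females left of males; circles are DHT arrays labelled with their time in hours, the line is their mean, diamonds are vehicle arrays and the open diamond is the muscle-rich array. On the brighter probe set the female 12 and 18 h arrays (2966 and 3353) lie within the male range and the other 6 female arrays lie above it.

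Markers of other cell types also differed between the sexes, and their part in the Elovl6 difference was not tested. The 12 macrophage markers summed to 33753 to 45353 on female DHT arrays and 38748 to 39981 on female vehicle arrays, against 24377 to 30949.6 on male DHT arrays and 29158 on male vehicle replicate 1. The 14 adipocyte markers ran the other way, with 104327 to 133590 on female DHT arrays, against 127757 to 173193 on male ones. The 7 brown adipocyte markers summed to 2166 to 3152 on female DHT arrays, against 4228 to 6446 on male ones, and the 19 skeletal muscle markers to 22113 to 55551, against 43348 to 75369.5. Such sums weigh the brightest markers most. Only 4 of the 7 brown markers passed the filter, and the brightest, Cox8b, had a ratio of 3.61 on the muscle-rich array. Between the sexes the DHT arrays did not overlap for the adipocyte markers Lipe and Cidec but did for Adipoq and Lpl. Exocrine pancreas markers were high on the female 12 h array, on which Elovl6 had its lowest female signal. The pancreatic elastase Cela2a was 18798 there and 277 on the female 18 h array, on which Elovl6 had its next lowest. The part of pancreas content in these signals was not tested. Without the female 12 h array the difference over the remaining 14 arrays was 0.98 (limma adjusted p = 0.00194). With time in the model the male 12 h array then adds nothing to that difference, and leaving it out instead also gave 0.98.

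None of the other 4 genes passed for sex. With 15 arrays Scd2 was 0.29 ± 0.09 higher in females (SE, unadjusted p = 0.00960, limma adjusted p = 0.0554), with all 8 female arrays above the male mean, but its second probe set gave -0.15 ± 0.11 (SE, limma adjusted p = 0.428), so the direction differs between probe sets. Elovl5 was 0.24 ± 0.09 higher (SE, limma adjusted p = 0.0827), with 6 of 8 female arrays above all 7 male ones. These splits of arrays were not counted over all genes. Scd1 had -0.20 ± 0.13 and Fads1 -0.04 ± 0.10 (SE). Under DHT alone Elovl5 had 0.26 ± 0.10 (SE, limma adjusted p = 0.129) and Scd2 0.21 ± 0.09 (SE, limma adjusted p = 0.187). With 16 arrays the values over all arrays ran between 0.11 and 0.60 for these 4 genes.

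By Pearson's r of log2 signals over the 15 arrays, given as a description of arrays that share their scaling, sex and treatment, the tested genes most like each member were different ones. For Elovl6 they were Cpa3 (0.94), a mast cell carboxypeptidase, Mmp3 (0.93), a matrix protease, and Ostc (0.92), and among the members Elovl5 (0.88). For Elovl5 they were Ptbp3 (0.92), Cggbp1 (0.92) and Npm1 (0.92). For Scd1 they were Eef1a1 (0.97), a translation elongation factor, Car3 (0.96), the carbonic anhydrase abundant in fat, and Rpl41 (0.95), a ribosomal protein. For Scd2 they were Rab31 (0.86), Actg1 (0.83) and Lox (0.81), and for Fads1 Tmem129 (0.79), Ndn (0.78) and Nkiras1 (0.73). Scd1 and Elovl6 had an r of -0.59.

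The rest of the pathway was tested in the same fits, in which female minus male with 15 arrays called 16.6% of all genes over all arrays and 11.9% under DHT, so the counts that follow are not above the background. Of 19 other desaturases, elongases and enzymes of the elongation cycle 7 were on the array and 5 were tested, and none passed in any comparison with 16 or 15 arrays. Those with the smallest p for DHT over all times with 15 arrays were Degs2, a ceramide desaturase (0.60 ± 0.45), Hacd3, a dehydratase of the elongation cycle (0.12 ± 0.14), and Degs1 (-0.09 ± 0.19). For late minus early they were Hacd3 (-0.30 ± 0.12), Degs1 (-0.24 ± 0.17) and Elovl1 (0.17 ± 0.18). Of 17 genes of fatty acid synthesis and its NADPH supply 10 were tested, and 1 passed, Thrsp, a promoter of fat synthesis, which was lower in females, with a log2 difference of -0.31 ± 0.08 with 15 arrays (SE, limma adjusted p = 0.0208). Thrsp did not pass under DHT alone with 15 arrays (-0.29 ± 0.09, SE, limma adjusted p = 0.0636), and with 16 arrays its difference over all arrays had the other sign (0.28 ± 0.58, SE, limma adjusted p = 0.848). The mean Thrsp signal of the 8 female arrays was 13771 (SD 1584), and that of the 7 male arrays other than the muscle-rich one was 16964 (SD 2232). For DHT over all times the smallest p belonged to Slc25a1, the citrate carrier (-0.13 ± 0.08), Acly, ATP citrate lyase (-0.22 ± 0.20), and Idh1 (0.18 ± 0.17), and for late minus early to Fasn, fatty acid synthase (0.20 ± 0.09), Slc25a1 (-0.15 ± 0.07) and Idh1 (-0.26 ± 0.15).

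Of 20 regulators and electron donors 11 were tested and 1 passed. Cyb5a, cytochrome b5, which passes electrons to the desaturases, was lower in females, with a mean signal of 5184 (SD 630.0) over the 8 female arrays and 7168 (SD 827) over the same 7 male arrays. The difference with 15 arrays was -0.47 ± 0.08 (SE, limma adjusted p = 0.00127) over all arrays and -0.48 ± 0.09 under DHT (SE, limma adjusted p = 0.00472). Cyb5a did not pass with 16 arrays (-0.15 ± 0.32 over all arrays, SE, limma adjusted p = 0.848). Srebf1, the gene of SREBP-1c, had -0.16 ± 0.09 for DHT over all times with 15 arrays (SE, unadjusted p = 0.0885, limma adjusted p = 0.998), beside Mlx (-0.14 ± 0.13) and Rxrb (-0.22 ± 0.22). For late minus early the smallest p belonged to Cyb5a (0.28 ± 0.08, unadjusted p = 0.00553, limma adjusted p = 0.422), Cyb5b (-0.18 ± 0.10) and Rxrb (-0.29 ± 0.19).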

How the data were processed

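RNA of retroperitoneal fat was hybridised to 16 Affymetrix arrays, grouped by sex and DHT time from the labels. The authors deposited a signal intensity on a linear scale for each of 12488 probe sets (66 of them controls); the submitters' processing notes name MAS5, with no version. Here log2(signal + 16) was used, with the brightest probe set of each gene. Genes with a mean below the 40th percentile of all probe sets that are not controls (116.03) were dropped, leaving 5686. Which probe sets that percentile covers was settled after a first fit, over gene probe sets only, had been seen. limma 3.58.1 (R 4.3.3) was fitted to all 5686 genes with sex and time (8 residual degrees of freedom), then with a sex by DHT term (7), using eBayes with a trend. Tests were two-sided, adjusted by Benjamini-Hochberg over all genes, with a threshold of 0.05, and were repeated without male vehicle replicate 2. The fits were also run on simulated data, with noise capped at its median over genes and no outlying array. That run therefore says nothing on the effect of the muscle-rich array.

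Every probe set of the 5 genes is mentioned, with fitted differences mainly for the brightest of each gene. Pathway genes are named if they passed or had one of the 3 smallest p-values in their list. The members and lists were chosen with earlier results of these data known. Alternatives were other pseudocounts, filters, normalization and array weights, a covariate from the control probe sets ending in _st, fits with fewer arrays, and DHT as a single group. Precision is limited by how few arrays there are. Protein sequences were not used here.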

Additional observations from a re-analysis of the deposited data

Results flagged for a closer look

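Of 24 groups of 4 or 6 arrays, 3 held an array far from the others. Chance alone gives about 1 in 20 for separate groups, but these groups share the same arrays, so no excess can be read from the count. On male vehicle replicate 2, the muscle-rich array, Elovl5 (688) and Fads1 (549) lay far below the 3 other vehicle arrays, which had 4078 to 4639.6 and 1233 to 1327. The female 24 h array had a Scd2 signal of 10117, far above the other 5 female DHT arrays (7085 to 8071), while the second Scd2 probe set had its lowest DHT signal there (3246). For the second Elovl6 probe set every female DHT array was below the mean of the female vehicle arrays and every male DHT array was above that of the male vehicle arrays, with a sex difference of the mean response of -2.22 on the log2 scale. How many of all probe sets split in this way was not counted. A limma test of that sex difference did not pass (SE 1.07, adjusted p = 0.611 over all probe sets). Without the muscle-rich array it was -0.22 ± 0.45 (SE, limma adjusted p = 0.999).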

How the results depend on the processing

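No paired analysis was possible because the labels number no replicates. Female and male arrays of the same DHT time are matched by time, which is a term of every fit that does not pool the times. Log2 values are given by comparison: DHT minus vehicle (all times, each time, females, males), female minus male (sex) and the rest by name. Pseudocounts of 1 and 64, no filter, quantile normalization, a robust fit without trend, the same probe sets in a fit of all probe sets, and the filter percentile over gene probe sets (4951 genes, with 16 arrays) kept direction and side of the threshold for the probe set used for each of the 5 genes. The second probe set of Scd2 had the other sign for sex under DHT (-0.17). With array weights the sign turned for all times Scd1 -0.0073, then 1 h Scd1 -0.43, Fads1 -0.0066, then 3 h Elovl5 -0.028, Elovl6 -0.12, then 6 h Scd1 -0.12, then 12 h Scd1 -0.18, Elovl5 -0.090, Elovl6 -0.22, then 18 h Elovl5 -0.076, Elovl6 -0.020, then sex Scd1 -0.15. Elovl6 then passed for sex 0.87 (1 member and 21.2% of all genes called), then sex under DHT 0.79 (1 member, 852 of 5686 genes). With 15 arrays and the _st covariate the sign turned for all times Elovl5 -0.036, Elovl6 -0.22, then 1 h Elovl5 -0.10, Elovl6 -0.24, then 3 h Elovl5 -0.087, Elovl6 -0.51, then 6 h Elovl5 -0.033, Elovl6 -0.12, then 12 h Scd1 -0.045, Elovl5 -0.092, Elovl6 -0.43, then 18 h Elovl5 -0.014, Elovl6 -0.0051, then late minus early Scd1 -0.056, Fads1 -0.022, Elovl5 0.075, Elovl6 0.15, then sex Scd1 -0.089, Fads1 -0.028, then males Elovl5 -0.10, then sex difference Scd1 0.35, Elovl5 0.11. Elovl6 then passed for sex 0.74 (1 member, 20.3%), then sex under DHT 0.67 (1 member, 908 of 5686 genes). With 15 arrays and the filter percentile over gene probe sets, chosen after seeing the data, the sign turned for all times Elovl6 -0.088, then 1 h Scd1 -0.30, Fads1 -0.045, then 3 h Elovl5 -0.031, Elovl6 -0.32, then 12 h Scd1 -0.044, Elovl5 -0.092, Elovl6 -0.43, then 18 h Elovl5 -0.079, Elovl6 -0.22, then 24 h Elovl6 -0.031, then sex Scd1 -0.20, Fads1 -0.042, then males Scd1 -0.092, Elovl5 -0.068, then sex difference Scd1 0.34, Elovl5 0.11. Elovl6 then passed for sex 0.87 (1 member, 17.9%), then sex under DHT 0.79 (1 member, 12.8%). With 15 arrays and DHT as a single group, also chosen then, the sign turned for all times Elovl6 -0.088. With 16 arrays and the _st covariate the sign turned for late minus early Scd1 -0.36, Scd2 -0.26, Fads1 -0.18, then sex under DHT Scd1 0.046. With the 12 DHT arrays alone Elovl6 passed for sex under DHT (0.79, 1 member, 13.2%). All these signs are set against the fit with 16 arrays. The values listed for 15 arrays with the filter percentile over gene probe sets, or with DHT as a single group, equal those of the plain 15-array fit. Those 2 settings thus added no change of sign beyond leaving out the muscle-rich array. The cause of the other changes was not tested. Leaving out each array in turn gave, where a call or sign changed, all times Elovl6 -0.088 to 1.55. For 1 h Scd1 -0.30 to 0.68, Fads1 -0.045 to 0.38. For 3 h Elovl5 -0.031 to 0.89, Elovl6 -0.32 to 1.32. For 12 h Scd1 -0.044 to 0.94, Elovl5 -0.092 to 0.89, Elovl6 -0.43 to 1.48. For 18 h Elovl5 -0.079 to 0.85, Elovl6 -0.22 to 1.72. For 24 h Elovl6 -0.031 to 1.61. For late minus early Scd2 -0.033 to 0.21, Fads1 -0.077 to 0.13, Elovl5 -0.17 to 0.067. For sex Scd1 -0.20 to 0.29, Fads1 -0.042 to 0.19, Elovl6 0.87 to 1.69 (0.76 to 0.99 when a further array is left out of the 15). For females Scd1 -0.15 to 0.65, Scd2 -0.064 to 0.075, Fads1 -0.0074 to 0.14, Elovl5 -0.023 to 0.11. For males Scd1 -0.092 to 2.60, Scd2 0.45 to 2.76, Fads1 0.20 to 1.34, Elovl5 -0.068 to 2.47, Elovl6 0.18 to 4.68. For sex difference Scd1 -2.35 to 0.34, Scd2 -2.73 to -0.42, Fads1 -1.27 to -0.13, Elovl5 -2.43 to 0.11, Elovl6 -4.92 to -0.42. For sex under DHT Fads1 -0.14 to 0.0078, Elovl6 0.64 to 0.93. Members called ranged 0 to 1 for sex (3.46 to 16.6% of all genes), 0 to 5 for males (0.0 to 43.0%), 0 to 5 for sex difference (0.0 to 33.7%) and 0 to 1 for sex under DHT (1.23 to 11.9%). Without male vehicle replicate 2 no member passed against vehicle, and without replicate 1 all 5 passed in males (43.0% of all genes) and in the sex difference (33.7%). A single array per sex and time, and 4 vehicle arrays of which 1 is muscle-rich, limit every comparison with vehicle.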
